A study of Homo sapiens with 4 samples.

Results

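The genes described here are 53 members of DNA replication and nucleotide synthesis, from the complexes that mark and open replication origins to the enzymes that make deoxynucleotides and the proteins that copy chromatin behind the fork. They were listed by name and not by a limit on any value, although earlier results of these data were known when the list was made. All 53 were among the 19626 genes of the deposited tables, and all 53 were among the 12157 genes tested, which had an RPKM (read count scaled by transcript length and library depth, a level per length) above 1 in at least 1 library. All 53 members were above 1 RPKM in every library, from 1.25 to 79.2 RPKM and from 103 to 4295 counts per library.

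RNA was sequenced from ES-2, an established human cell line labelled as ovarian clear cell carcinoma, which carries the endogenous fusion of YAP1 and MAML2 called YM. Cells of both groups received pLKO.1 lentiviruses, in infections of 8 h on successive days, and RNA was taken 96 h after the first infection, by the labels. The study's methods give other infection lengths and another time to RNA isolation, which the values here do not settle. The control group carried a nontargeting shRNA (shCtl, n = 2, labelled as biological replicates). The other group carried shM2-3 (n = 2, labelled likewise), which is directed at MAML2 sequence that the fusion shares. The unfused MAML2 transcript is thus a target as well as the fusion. A single cell line and a single hairpin were used.

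Replication of DNA begins where the origin recognition complex (ORC) sits on chromatin. CDC6 and CDT1 then load the ring-shaped MCM helicase there in G1, and geminin (GMNN) blocks CDT1 so that no origin is loaded again within the same cycle. In S phase CDC45 and the GINS complex turn the loaded ring into an active helicase, primase with polymerase alpha lays down primers, and polymerases epsilon and delta copy the strands while held by the PCNA clamp. The deoxynucleotides they use come from ribonucleotide reductase, thymidylate synthase and salvage kinases, and many genes of this machinery are known targets of E2F factors.

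The estimated counts summed to between 2.01e+07 and 2.40e+07 per library. MAML2, the targeted gene, had an RPKM of 8.61 and 8.26 in shCtl and 3.11 and 2.998 in shM2-3, so that 36.2% remained. Its log2 fold change was -1.40 (standard error 0.0688, edgeR adjusted p = 5.18e-10). Reads from the unfused gene and from the fusion are not separated in this value. Of 7 markers listed for ovarian clear cell carcinoma, ANXA4 was above 1 RPKM. The other 6, NAPSA and PAX8 among them, were at or below it, so the labelled type was not visible in these markers. Of 6 epithelial markers, KRT7, KRT8 and KRT18 were above 1 RPKM, with a summed level of 637 in each control library and 312 and 316 after shM2-3. Of 7 fibroblast markers, COL1A1 and COL6A3 were above it, with sums of 354 and 364 against 913 and 912. Of the 6 leukocyte markers in the table, CD68 was above it in every library and LYZ only in shM2-3 replicate 1 (2.34 RPKM), with sums of 58.3 and 57.4 against 41.2 and 40.3, while PTPRC was at or below it. The part of these shifts in the values below was not tested. In bulk RNA, fewer cells in S phase and less of these transcripts per cell cannot be told apart.

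Short forms of the E2F site stand in the promoters of many of these genes. A few are shown, picked after the values were seen so as to hold genes that changed in opposite directions. The windows are RefSeq promoters of GRCh38.p14, from 250 bases before to 50 after a transcript start, and 47 of the 53 members had at least 1. MCM4, MCM5, GINS4, POLD3, RPA2 and RPA3 had none. Each line gives 30 bases in the direction of transcription, and the capitals mark the form or its reverse complement.

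CDT1, chr16:88803743-88803772, plus strand: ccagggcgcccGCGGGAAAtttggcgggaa
TYMS, chr18:657603-657632, plus strand: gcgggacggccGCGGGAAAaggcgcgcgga
PCNA, chr20:5126663-5126692, minus strand: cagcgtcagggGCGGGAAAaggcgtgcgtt
CLSPN, chr1:35769965-35769994, minus strand: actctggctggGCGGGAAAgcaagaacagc
MCM7, chr7:100101388-100101417, minus strand: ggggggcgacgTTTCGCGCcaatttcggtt
MCM6, chr2:135876511-135876540, minus strand: ggtcaggtttgGCGCGAAAtctccagctcc
MCM3, chr6:52284728-52284757, minus strand: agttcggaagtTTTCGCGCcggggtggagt
POLE, chr12:132687342-132687371, minus strand: tgggtgggagcGCGCCAAAtttctcccctg

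CDT1 and TYMS, which share the capitals GCGGGAAA with PCNA and CLSPN, fell at least 2-fold in shM2-3 cells, whereas PCNA and CLSPN rose. The capitals shown for MCM7, MCM6 and MCM3 are another form, read forward in MCM7 and MCM3 and as its reverse complement in MCM6. Each line shows only 1 match of a gene. At other positions MCM7 also held GCGGGAAA and MCM3 its reverse complement TTTCCCGC, and MCM6 also held TTTGGCGC. MCM7 and MCM6 fell and MCM3 rose. The capitals of POLE, which also rose, are the reverse complement of TTTGGCGC. The lines hold every higher member with a form, some of the lower ones and none of those not called. Being picked by direction, they do not show how often a form goes with either direction. The forms TTTCCCGC, TTTCGCGC, TTTGCCGC and TTTGGCGC were searched on both strands, and matches may overlap. At least 1 was found in 24 of the 47 members (51.1%), against 6.91% of the 9571 tested genes with a window. By window, it was 39.1% of the 64 member windows, against 5.08% of the 13941 windows of tested genes and 3.31% of all 35116 windows. Among the 24 members with a form, 12 were called lower, 4 higher and 8 neither (median log2 fold change -0.25). Among the 23 without one, 16 were called lower, 5 higher and 2 neither (median -0.45). Over all genes tested, 36.4% were called lower and 36.3% higher. Members called in either direction were thus found both with and without a form, and a match in these letters does not show that a factor binds there. The letters CCAAT, bound by NF-Y, were in 59.6% of the members and 43.8% of tested genes, and the TEAD letters CATTCC were in 14.9% and 15.05%.

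shM2-3 cells had less RNA for most of the replication genes, by modest amounts, and more for a smaller group. At an adjusted p of 0.05 or less, 30 of the 53 members were lower, where 36.4% of all genes tested were lower, and 10 were higher, where 36.3% were. The other 13 did not pass, while 41 members had an unadjusted p under 0.05. Here and below, adjusted p values come from edgeR's quasi-likelihood test on the estimated counts with Benjamini-Hochberg adjustment over the 12157 genes. A fold change of 2 or more was added to that p in 7 lower members, beside a background of 8.93%, and in 0 higher members, beside 9.24%. With 1.5-fold in place of 2-fold the members were 14 lower and 4 higher, beside 18.9% of all genes in each direction. The median log2 fold change of the members was -0.27, against -0.0037 for all genes, and the values ran from -1.30 for ORC1 to 0.99 for MCM10. Their median size without sign was 0.39, beside 0.45 over all genes.

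Both shM2-3 libraries lay below both shCtl libraries in RPKM for 37 members, beside 47.1% of all genes tested. Both lay above for 10 members, beside 38.9%. In the other 6 (GMNN, GINS1, GINS3, POLA1, POLD3 and RPA2) the groups overlapped. The summed RPKM of the members was 868 and 858 in shCtl and 636 and 641 in shM2-3, or 0.268% and 0.264% against 0.221% and 0.217% of the RPKM of each library. RPKM ran lower in shM2-3 as a whole, with a sum over all genes tested of 323297 and 324532 in shCtl against 286646 and 294594. Calls in both directions were found in 9 of the 12 role groups, as the plot of fold changes by role shows. Over all genes tested 72.7% were called, 36.4% lower and 36.3% higher, so mixed calls are not by themselves a trait of these groups. The counts by role group below stand beside these shares. Licensing factors, polymerase alpha-primase and the nucleotide supply enzymes were the 3 groups with no higher call. With 2 libraries in each group an exact permutation test of a single gene cannot go below p = 0.333, so the p values here rest on the spread shared across genes.

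**Figure D1:**
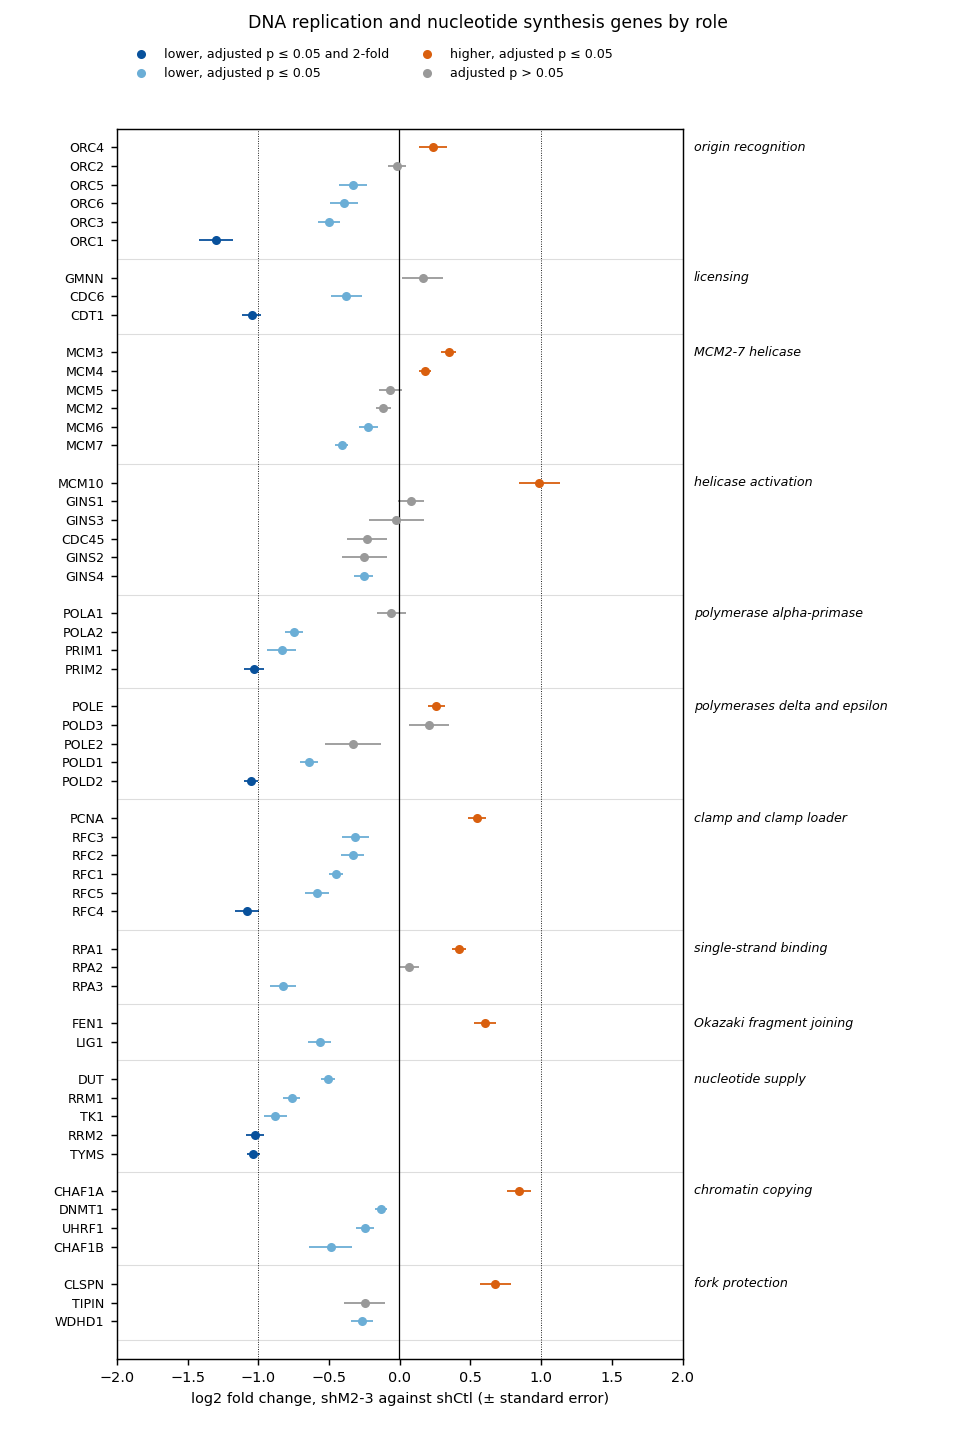
Log2 fold change of each of the 53 members (shM2-3 against shCtl, 2 libraries each) with its standard error as a bar, grouped by role, where the solid line is the median of all genes tested and the dotted lines mark 2-fold. Dark blue points are the 7 members lower by at least 2-fold, orange points the 10 higher members, and every nucleotide supply gene lies left of the line.

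Of the 6 ORC genes, 4 were lower, 1 was higher and 1 did not pass (median log2 fold change -0.36). ORC1 (chr1:52372829-52404423 of hg38, minus strand) encodes the largest subunit, an ATPase whose level varies through the cell cycle. Its RPKM was 5.75 and 5.70 in shCtl and 2.34 and 2.10 in shM2-3. The shM2-3 libraries were well below both controls, and ORC1 had the lowest log2 fold change of all members, -1.30 (standard error 0.119, edgeR adjusted p = 3.50e-07), or 2.46-fold lower. ORC4, another subunit of the ATPase family, had an RPKM of 4.22 and 3.40 in shCtl and 4.30 and 4.27 in shM2-3. The first shCtl library was level with the shM2-3 pair, and the fitted log2 fold change was 0.23 (standard error 0.0973, edgeR adjusted p = 0.0436). The ORC4 call was lost under 8 of 12 alternatives, among them the DESeq2 Wald test (adjusted p = 0.0998) and leaving out either shM2-3 library (edgeR adjusted p = 0.122 and 0.126). Without shCtl replicate 2 its log2 fold change was 0.082 (edgeR adjusted p = 0.472), and without shCtl replicate 1 it was 0.40 (edgeR adjusted p = 0.00118). ORC3, the most abundant of the 6, went from 21.2 and 18.4 RPKM to 13.7 and 12.9, a fall of 0.50 on the log2 scale. ORC6 fell by 0.39 and ORC5 by 0.33, the latter with an edgeR adjusted p of 0.0542 without shCtl replicate 1 and of 0.0624 without shM2-3 replicate 2. ORC2, a core subunit, was level at 9.07 and 8.98 against 8.83 and 8.18 (log2 fold change -0.019, edgeR adjusted p = 0.809). The RPKM ratio of ORC4 to ORC1 in a library went from 0.734 and 0.597 to 1.84 and 2.03.

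The licensing factors had 2 lower members and 1 that did not pass. CDT1 (chr16:88803789-88809258, plus strand) brings the MCM ring to ORC. CDT1 RPKM was 24.7 and 26.1 in shCtl and 11.5 and 12.04 in shM2-3. The groups were far apart, at a log2 fold change of -1.05 (standard error 0.0651, edgeR adjusted p = 6.18e-09), or 2.07-fold lower. GMNN, the inhibitor of CDT1, was at 7.65 and 9.91 RPKM in shCtl and 8.47 and 10.3 in shM2-3, with overlapping groups, at a log2 fold change of 0.16 (standard error 0.147, edgeR adjusted p = 0.332). The replicates of GMNN differed as much as the groups did, and leaving out single libraries moved its log2 fold change from -0.0090 without shCtl replicate 1 to 0.36 without shCtl replicate 2, where it passed (edgeR adjusted p = 0.0478). CDC6, the ATPase that loads MCM with CDT1, was 3.19 in each control library and 2.39 and 2.31 after shM2-3, a fall of 0.38 on the log2 scale. The RPKM of CDT1 was 3.23 and 2.64 times that of GMNN in the shCtl libraries and 1.35 and 1.16 times in the shM2-3 libraries.

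The MCM ring, whose subunits assemble in equal number, had 33.3% of its 6 genes lower and 33.3% higher. These shares were near those of all genes tested, 36.4% and 36.3%. MCM7 (-0.41) and MCM6 (-0.22) were lower, MCM3 (0.35) and MCM4 (0.18) were higher, and MCM2 (-0.12) and MCM5 (-0.066) did not pass. The median log2 fold change was -0.090. MCM7 RPKM was 50.9 and 47.8 in shCtl and 35.3 and 35.6 in shM2-3, the highest level of the ring in either group (standard error of its log2 fold change 0.0470, edgeR adjusted p = 3.09e-06). MCM7 overlaps AP4M1 on the other strand in the annotation and MIR93 on its own. MCM3 RPKM was 18.7 and 19.9 in shCtl and 23.3 and 23.5 in shM2-3 (standard error 0.0528, edgeR adjusted p = 4.91e-05). Neither gene's groups overlapped, and the RPKM ratio of MCM3 to MCM7 went from 0.367 and 0.416 to 0.662 and 0.659. The call for MCM6 was lost without shCtl replicate 1 (edgeR adjusted p = 0.0502) and without shM2-3 replicate 1 (edgeR adjusted p = 0.0678). In MCM5 shM2-3 replicate 1 stood at 9.81 RPKM, while replicate 2 at 11.7 was level with the controls. MCM2, the subunit that also binds histones, was at 22.1 and 22.7 against 19.7 and 19.8, apart in RPKM but with an edgeR adjusted p of 0.0564, and it passed when total counts set the library sizes (edgeR adjusted p = 0.0167). MCM4 went from 29.3 and 30.1 to 32.3 and 32.0, a small but called rise. Summed over the ring, the RPKM was 146 and 145 in shCtl and 131 and 134 in shM2-3. The RPKM summed over all genes tested was also lower in shM2-3, so this sum does not show a fall particular to the ring.

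Of the 6 genes that turn the ring into a moving helicase, 4 did not pass. MCM10 (chr10:13161558-13211110, plus strand), which acts when the helicase starts and tethers polymerase alpha, was the most raised member. MCM10 RPKM was 1.32 and 1.55 in shCtl and 2.90 and 2.53 in shM2-3. Both shM2-3 libraries lay above both controls, at a log2 fold change of 0.99 (standard error 0.144, edgeR adjusted p = 3.35e-05), or 1.98-fold higher from a low level. Without shCtl replicate 2 this became 1.10 and without shM2-3 replicate 2 it became 1.07, both past 2-fold. GINS4 RPKM was 10.99 and 10.95 in shCtl and 9.01 and 8.54 in shM2-3, a log2 fold change of -0.25 (standard error 0.0681, edgeR adjusted p = 0.00425). The other GINS subunits and CDC45, which bind the ring with GINS4, ranged from -0.25 (GINS2) to 0.076 (GINS1), and none of the 4 passed. With limma on log2(RPKM + 1) CDC45 (limma adjusted p = 0.0382) and GINS2 (limma adjusted p = 0.0468) did pass as lower. CDC45 was at 4.83 and 5.07 RPKM in shCtl and 3.70 and 4.35 in shM2-3, and GINS2 at 3.23 and 3.05 against 2.37 and 2.69. GINS1 was at 6.12 and 6.96 against 6.43 and 6.74, and GINS3 at 2.76 and 2.16 against 2.23 and 2.40, with a gap between the shCtl replicates of GINS3 as wide as any between groups. GINS3, CDC45 and GINS2 were also among the least abundant members, with wide standard errors of 0.192, 0.139 and 0.158.

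Polymerase alpha and primase work as 1 complex of 4 subunits, and 3 of the 4 fell (median log2 fold change -0.79). PRIM2 (chr6:57314805-57646850, plus strand) encodes the large primase subunit. PRIM2 RPKM was 16.0 and 16.2 in shCtl and 7.61 and 7.43 in shM2-3. Its log2 fold change was -1.03 (standard error 0.0726, edgeR adjusted p = 2.33e-08), or 2.04-fold lower, with tight replicates. PRIM1, the catalytic primase subunit, fell from 17.3 and 15.2 to 8.68 and 8.75, and POLA2, the regulatory subunit of polymerase alpha, from 14.9 and 15.1 to 8.58 and 8.51. PRIM1 shares exon sequence with NACA on the same strand in the annotation, so its counts are less certain. POLA1, the catalytic polymerase, stood apart from its partners at 4.42 and 3.93 in shCtl and 4.13 and 3.52 in shM2-3, with overlapping groups, at a log2 fold change of -0.059 (standard error 0.101, edgeR adjusted p = 0.614). POLA1 was also the least abundant of the 4 in every library, and its ratio to PRIM2 went from 0.277 and 0.243 to 0.542 and 0.474.

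Polymerases delta and epsilon, which copy the lagging and leading strands, gave 2 lower genes, 1 higher and 2 that did not pass. POLD2 (chr7:44114631-44124358, minus strand), an accessory subunit of polymerase delta, had 58.0 and 56.1 RPKM in shCtl and 26.2 and 26.3 in shM2-3. The groups did not overlap, at a log2 fold change of -1.05 (standard error 0.0474, edgeR adjusted p = 2.09e-10), or 2.07-fold lower. POLD1, the catalytic subunit of delta, was 16.2 in each control library and 10.0 and 9.83 after shM2-3, a fall of 0.64. POLD3, another accessory subunit, was 4.46 and 4.37 in shCtl, 5.76 in shM2-3 replicate 1 and 3.96 in replicate 2. The shM2-3 libraries lay on either side of the controls, and the log2 fold change of POLD3 was -0.087 without shM2-3 replicate 1 and 0.45 without replicate 2, where it passed as higher (edgeR adjusted p = 0.00363). POLE, the catalytic subunit of epsilon, was higher, with 6.13 RPKM in each control library and 7.15 and 6.84 after shM2-3 (log2 fold change 0.26, standard error 0.0596, edgeR adjusted p = 0.00154). POLE2, its partner, was at 3.14 and 2.89 against 2.60 and 1.98 and did not pass (edgeR adjusted p = 0.147). The ratio of POLE to POLD2 went from 0.106 and 0.109 to 0.273 and 0.260.

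All 6 genes of the clamp and its loader were called, the loader down and the clamp up. RFC4 (chr3:186789880-186807058, minus strand), a small subunit of the replication factor C loader, had 21.2 and 20.7 RPKM in shCtl and 9.62 and 9.32 in shM2-3. With no overlap between groups, its log2 fold change was -1.08 (standard error 0.0843, edgeR adjusted p = 6.61e-08), or 2.11-fold lower. RFC4 shares exon sequence with EIF4A2 on the opposite strand, and libraries without strand do not separate such reads. The authors removed ambiguous reads at alignment, and whether that covers reads in overlaps between genes is not stated. RFC1, the large subunit and the most abundant of the loader, went from 32.9 and 31.0 to 23.2 and 21.4, a fall of 0.45. The small subunits RFC5, RFC2 and RFC3 fell by 0.59, 0.33 and 0.31. RFC3 missed the threshold without shCtl replicate 1 (edgeR adjusted p = 0.0519) and in the DESeq2 Wald test (adjusted p = 0.0572). PCNA (chr20:5114953-5126626, minus strand), the sliding clamp that the loader places on DNA, had 25.3 and 25.4 RPKM in shCtl and 34.7 and 36.0 in shM2-3. Its log2 fold change was 0.55 (standard error 0.0654, edgeR adjusted p = 5.03e-06), or 1.46-fold higher, with both shM2-3 libraries above both controls. PCNA has 3 annotated pseudogenes that bear its name. The RPKM ratio of PCNA to RFC4 was 1.19 and 1.23 in shCtl and 3.60 and 3.86 in shM2-3, the widest change among the within-group pairs.

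The single-strand binding protein RPA is a trimer, and 1 of its genes was lower, 1 higher and 1 did not pass. RPA3, the smallest subunit, had 15.3 and 14.1 RPKM in shCtl and 7.70 and 8.21 in shM2-3, a log2 fold change of -0.82 (standard error 0.0912, edgeR adjusted p = 2.30e-06). RPA1, the large DNA-binding subunit, had 17.0 and 17.1 in shCtl and 21.2 and 22.5 in shM2-3, a log2 fold change of 0.42 (standard error 0.0493, edgeR adjusted p = 3.89e-06). RPA2 was at 16.6 and 16.9 against 16.5 and 17.0 and did not pass (log2 fold change 0.066). The 3 transcripts were thus at like RPKM in shCtl cells and spread out in shM2-3 cells, with RPA1 to RPA3 ratios of 1.11 and 1.22 against 2.76 and 2.74. RPA1 overlaps SMYD4 and RPA3 overlaps UMAD1 on the other strand in the annotation.

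Both enzymes that finish Okazaki fragments, the short pieces of the lagging strand, were called, in opposite directions. FEN1 (chr11:61792911-61797238, plus strand) is the nuclease that trims the flap. FEN1 RPKM was 11.4 and 11.6 in shCtl and 16.5 and 16.8 in shM2-3, a log2 fold change of 0.60 (standard error 0.0763, edgeR adjusted p = 8.57e-06), or 1.52-fold higher. It shares exon sequence with FADS2 on the same strand. LIG1, the ligase that seals the nick afterwards, was at 9.12 and 9.44 against 5.58 and 6.41, a log2 fold change of -0.57 (standard error 0.0806, edgeR adjusted p = 2.56e-05). Neither gene's groups overlapped, and the ratio of FEN1 to LIG1 was 1.25 and 1.23 in shCtl against 2.96 and 2.63 in shM2-3.

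**Figure D2:**
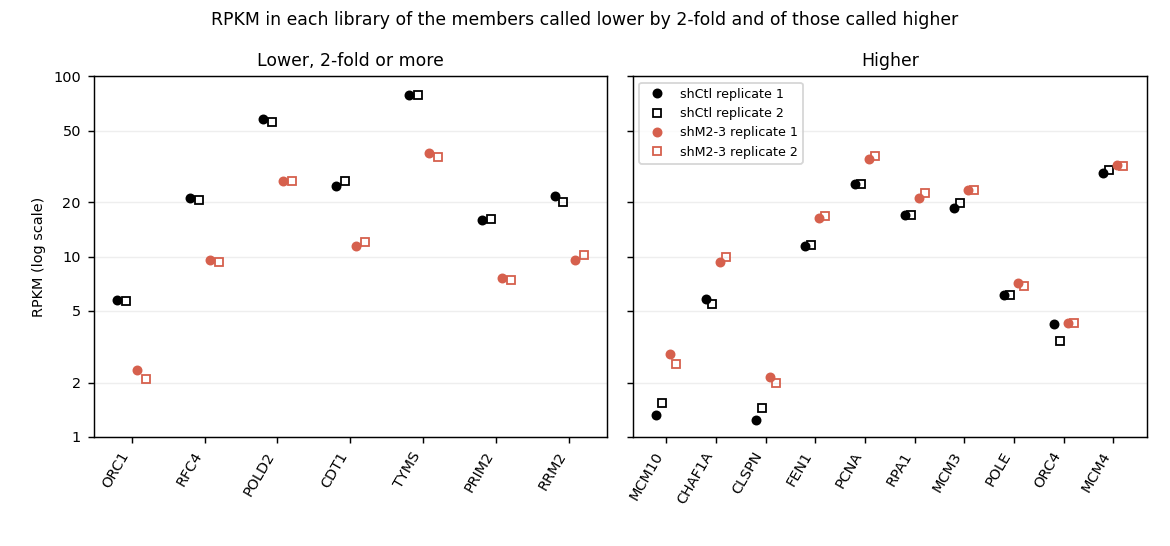
RPKM on a log scale in each of the 4 libraries (black shCtl, red shM2-3, filled circles replicate 1, open squares replicate 2) for the 7 members lower by at least 2-fold and the 10 higher members. The 7 on the left separate by group with tight replicates, from ORC1 near 5.75 in shCtl to TYMS near 79.2, while ORC4 on the right has a first shCtl library (4.22) level with shM2-3.

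All 5 nucleotide supply enzymes fell (median log2 fold change -0.88), and their summed RPKM was 202 and 199 in shCtl against 107 and 108 in shM2-3. TYMS (chr18:657653-673578, plus strand), thymidylate synthase, makes dTMP from dUMP and was the most abundant member. TYMS RPKM was 79.2 and 78.8 in shCtl and 37.7 and 35.9 in shM2-3. The log2 fold change was -1.04 (standard error 0.0477, edgeR adjusted p = 2.67e-10), or 2.05-fold lower, with groups far apart. TYMS shares exon sequence with ENOSF1 and TYMSOS on the other strand. RRM2 (chr2:10120698-10211725, plus strand), the cell-cycle-regulated small subunit of ribonucleotide reductase, had 21.8 and 20.2 RPKM in shCtl and 9.53 and 10.2 in shM2-3. Its log2 fold change was -1.02 (standard error 0.0611, edgeR adjusted p = 4.00e-09), or 2.03-fold lower. Without shCtl replicate 1 or without shM2-3 replicate 1 it was -0.97, still past the adjusted p but under 2-fold. RRM1, the large subunit, went from 35.4 and 32.6 to 18.3 and 19.95, a fall of 0.76, and the RRM2 to RRM1 ratio from 0.616 and 0.621 to 0.522 and 0.511. TK1, the thymidine kinase of the salvage route, went from 19.7 and 20.2 to 10.2 and 10.6, a fall of 0.88. DUT, which hydrolyses dUTP and so supplies dUMP, fell least, from 46.3 and 47.2 RPKM to 30.9 and 31.9 (log2 fold change -0.51, standard error 0.0478, edgeR adjusted p = 4.39e-07), and it has 8 annotated pseudogenes bearing its name. No library of one group reached the other in any of the 5.

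Among the genes that copy chromatin, the large and the middle subunit of the histone chaperone CAF-1 moved in opposite directions. CHAF1A (chr19:4402640-4445018, plus strand), its large subunit, had 5.85 and 5.42 RPKM in shCtl and 9.37 and 9.98 in shM2-3, a log2 fold change of 0.84 (standard error 0.0854, edgeR adjusted p = 9.27e-07), or 1.80-fold higher. CHAF1B, the middle subunit, had 2.19 and 2.37 in shCtl and 1.43 and 1.67 in shM2-3, a log2 fold change of -0.49 (standard error 0.150, edgeR adjusted p = 0.00972). The CHAF1B call was lost without shM2-3 replicate 1 (edgeR adjusted p = 0.0837). The groups of both genes were separate, and CHAF1A exceeded CHAF1B 2.67 and 2.29 times in shCtl and 6.55 and 5.96 times in shM2-3. CHAF1A overlaps UBXN6 and CHAF1B overlaps MORC3 in the annotation. DNMT1, the maintenance DNA methyltransferase, was at 32.1 and 33.4 RPKM in shCtl and 28.4 and 28.7 in shM2-3, a fall of 0.13. UHRF1, which brings DNMT1 to newly copied DNA, was at 16.3 and 18.8 against 13.96 and 14.4, a fall of 0.24. Without shCtl replicate 2 neither passed, with an edgeR adjusted p of 0.101 for DNMT1 and 0.0650 for UHRF1, and DNMT1 also missed without shM2-3 replicate 1 (edgeR adjusted p = 0.0553).

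At the fork itself, CLSPN (chr1:35720218-35769978, minus strand), the claspin adaptor that carries the checkpoint signal and paces the fork, was low and rose. CLSPN RPKM was 1.25 and 1.45 in shCtl and 2.14 and 1.98 in shM2-3, a log2 fold change of 0.68 (standard error 0.109, edgeR adjusted p = 7.98e-05), or 1.60-fold higher. WDHD1, which ties the helicase to polymerase alpha, had 6.25 and 5.77 in shCtl and 4.98 and 4.55 in shM2-3, a log2 fold change of -0.27 (standard error 0.0781, edgeR adjusted p = 0.00728). WDHD1 missed the threshold without shCtl replicate 1 (edgeR adjusted p = 0.0645) and without shM2-3 replicate 2 (edgeR adjusted p = 0.0883). TIPIN, of the fork protection complex, was at 4.95 and 5.39 against 4.09 and 4.23 and did not pass (edgeR adjusted p = 0.141), although it did with limma on log2(RPKM + 1) (limma adjusted p = 0.0165). The ratio of CLSPN to WDHD1 went from 0.199 and 0.251 to 0.429 and 0.434.

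These ratios are taken within a library and do not depend on how libraries are scaled to each other, but each pair was picked as the highest and lowest fold change of its role group, so their direction is fixed by that choice. Over the 12 groups the mean ratio in shM2-3 was from 1.44 times (DUT to TYMS) to 3.09 times (PCNA to RFC4) that in shCtl. For the subunits of ribonucleotide reductase, which both fell, the log2 fold change of RRM2 was 0.26 below that of RRM1 (standard error of the difference 0.0849).

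**Figure D3:**
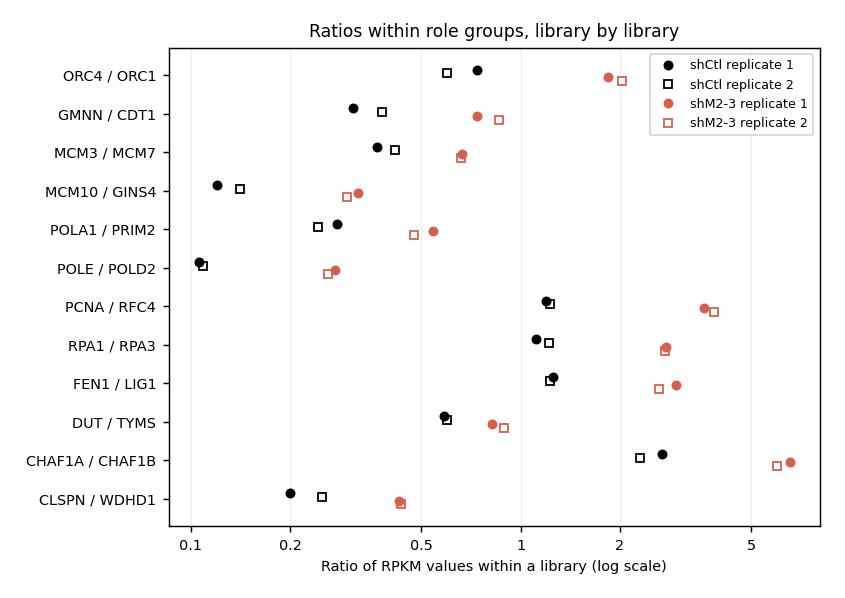
Ratio of the RPKM of the member with the highest log2 fold change to that of the member with the lowest, within each role group and library, on a log scale (black shCtl, red shM2-3, filled circles replicate 1, open squares replicate 2). In every group the shM2-3 libraries lie to the right, furthest for PCNA to RFC4 (1.19 and 1.23 against 3.60 and 3.86).

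Further genes of the same pathways were read from lists that are not members. Over all genes tested, 36.4% were lower and 36.3% higher. Of 26 other replication factors, 14 (53.8%) were lower and 4 (15.4%) higher (median log2 fold change -0.23). ATAD5, which unloads PCNA from DNA, was the lowest of them, with 4.05 and 4.59 RPKM in shCtl and 1.64 and 1.34 in shM2-3 (log2 fold change -1.47, standard error 0.112, edgeR adjusted p = 5.05e-08). TOP1, the topoisomerase that relieves twist ahead of the fork, was the highest, at 51.2 and 50.5 against 75.8 and 76.1 (log2 fold change 0.65, standard error 0.0404, edgeR adjusted p = 6.74e-09). DBF4 and CDC7, the subunits of the kinase that fires origins, were named after their values were seen: DBF4 fell by 0.84 and CDC7 rose by 0.43 on the log2 scale.

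Of 34 other genes of nucleotide synthesis, 25 (73.5%) were lower and 4 (11.8%) higher, beside 36.4% and 36.3% of all genes tested. The median of this list was -0.51. HPRT1, which salvages purine bases, was the lowest, with 40.4 and 38.5 RPKM in shCtl and 12.1 and 16.3 in shM2-3 (log2 fold change -1.41, standard error 0.107, edgeR adjusted p = 4.63e-08). SAMHD1, which breaks down deoxynucleoside triphosphates, was the highest, with 6.51 and 6.42 against 15.2 and 14.02 (log2 fold change 1.24, standard error 0.0588, edgeR adjusted p = 3.50e-10). This enzyme was 2.37-fold higher, and the 5 supply enzymes among the members were lower. SAMHD1 is named as the extreme of its list, and deoxynucleotide levels were not measured here.

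Sorted by step, a sorting made after the values were seen, all 8 genes from ribose phosphate to IMP, the first complete purine nucleotide, were lower, from -0.96 (PRPS2) to -0.21 (PRPS1), as were all 3 from IMP to GMP, with GMPS lowest at -0.93. For the pyrimidine ring and CTP, 4 of 5 were lower and UMPS was higher at 0.35. Of the 5 folate enzymes 3 were lower, among them MTHFD2 of the mitochondrial one-carbon route, which fell from 33.1 and 34.4 to 15.02 and 15.3 RPKM (log2 fold change -1.09, standard error 0.0461, edgeR adjusted p = 1.10e-10). Of the 6 nucleotide kinases 5 were lower, 2 of which (NME1 and NME2) are close in sequence, so that some of their reads may be shared. Of the 4 salvage genes 2 were lower, 1 was higher and 1 did not pass. The higher one was TK2, the mitochondrial thymidine kinase, at 0.63, opposite in sign to cytosolic TK1. Of the 3 genes that control deoxynucleotides, 0 were lower, 1 (SAMHD1) was higher and 2 did not pass.

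**Figure D4:**
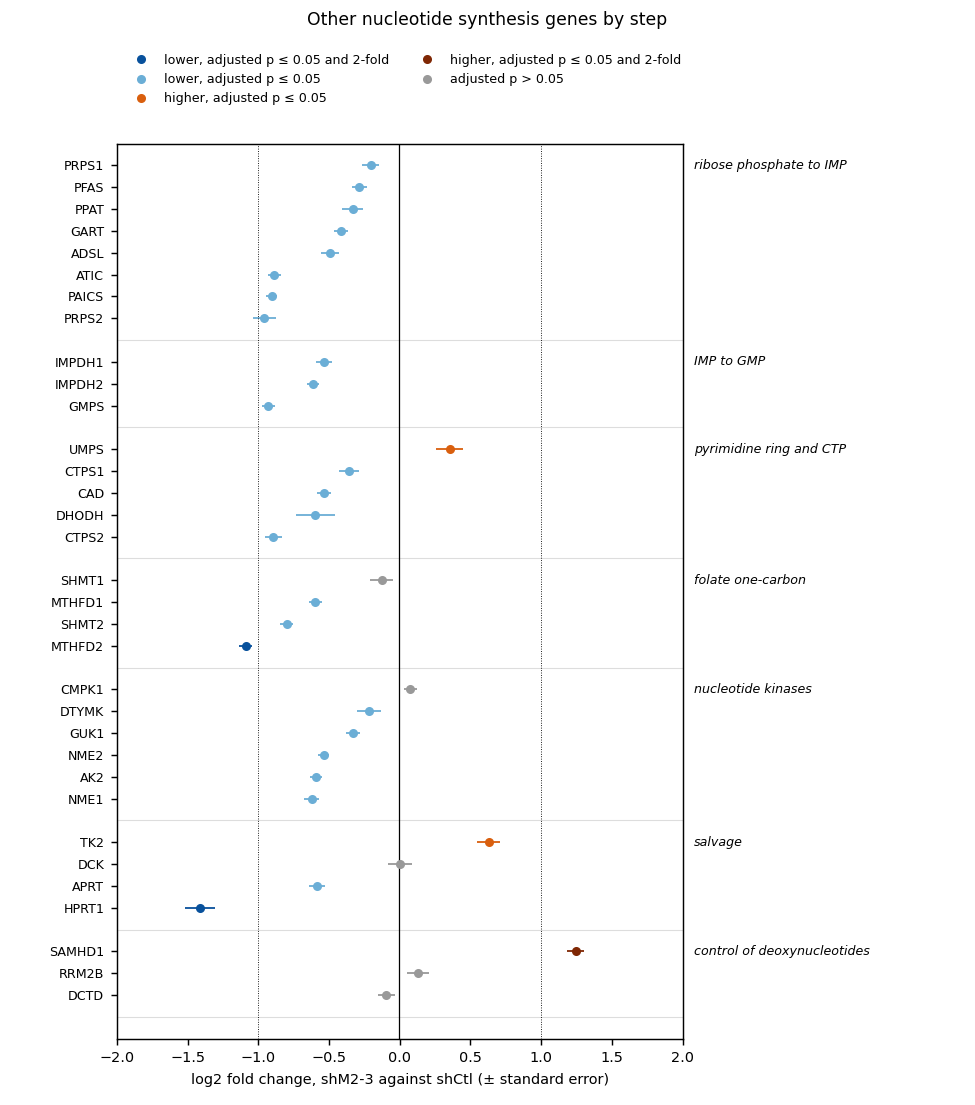
Log2 fold change with its standard error for 33 of the 34 nucleotide synthesis genes that are not members, grouped by step, with the solid line at the median of all genes tested and dotted lines at 2-fold. Both purine groups lie wholly to the left, and SAMHD1 (1.24) is furthest to the right.

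For comparison, 29 of 30 mitotic genes were lower (36.4% of all genes tested) and 0 were higher (36.3%). Their median was -1.02, and 16 were lower by at least 2-fold (8.93% of all genes tested). BUB1, a spindle checkpoint kinase, was lowest of these at -1.60, and ESPL1 was highest at -0.12 (edgeR adjusted p = 0.147). The difference between these lists was not tested.

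**Figure D5:**
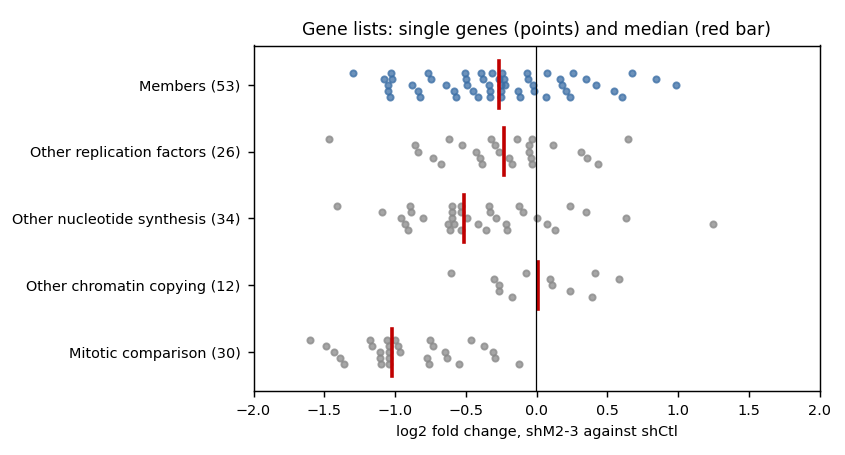
Log2 fold change of single genes (points) and the median (red bar) for the 53 members, the 3 further pathway lists and 30 mitotic genes, with the solid line at the median of all genes tested. The members lie around -0.27 on both sides of the line, and the mitotic genes lie wholly to its left around -1.02.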

How the data were processed

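RNA-seq of ES-2 cells with shCtl (2 libraries) or shM2-3 (2 libraries) was analysed, with groups from the sample labels. Libraries were non-strand-specific with paired reads of 150 bases. The authors aligned reads to hg38 with HISAT2 2.0.4, discarded ambiguous alignments and alignments of quality below 10, and counted reads per RefSeq gene with Partek 7.18. Estimated counts were deposited without normalization, and whole numbers made up 42.4% to 48.6% of a library's values. The deposited RPKM values are these counts scaled by gene length and library size by the authors. Counts of 103 to 4295 per member and library set the precision.

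Estimated counts were rounded and tested with edgeR 4.0.16 in R 4.3.3 (TMM factors, estimateDisp, glmQLFit, glmQLFTest, no block) over the 12157 genes whose RPKM exceeded 1 in any library, with Benjamini-Hochberg adjustment. The standard error is the log2 fold change divided by the square root of F. The fitted biological coefficient of variation was 0.0485. In a simulation of all 12157 genes, 194 of 200 changed genes were recovered and 9 unchanged genes were called. In the data 72.7% of the genes tested were called, and recovery with so large a share of changed genes was not tested. Recovery by size of change is not given here. The 194 of 200 is thus not a rate for the members, whose median size without sign was 0.39 on the log2 scale. Replicates differed 3.45 times (shCtl) and 3.94 times (shM2-3) as much as sampling alone gives, as chi-square per degree of freedom. Alternatives used DESeq2 1.42.0, limma 3.58.1, other scaling and filters, the block, and each library left out.

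The members and gene lists were chosen with earlier results of these data known, so no list was tested as a set. Named with full values are the lowest and highest log2 fold change of each role group and pathway list, and every member past 2-fold. Loci and exon overlaps come from GENCODE release 44 on hg38, promoters from RefSeq GRCh38.p14. By that annotation 27 of the 53 members share exon sequence with another gene on either strand. A pseudogene bearing the member's name is annotated for 12, among them ORC1, POLD2, RRM2 and TYMS. The overlaps and pseudogenes named with single genes above are thus not a full list. Sequences of proteins were not used here, and some genes of the lists are not reported here.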

Additional observations from a re-analysis of the deposited data

How the results depend on the processing

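Of the 53 members, the 30 lower calls were shared in full by each scaling, filter and limma alternative, and 29 of them by the DESeq2 Wald test. Both limma settings called 34 members lower, with MCM2, CDC45, GINS2 and TIPIN gained, and MCM2 was also gained with total counts and with either other filter. Leaving out 1 library gave between 26 and 28 lower and between 9 and 10 higher calls. With the replicate number as a block, 30 members were lower and 10 higher, 7 of them lower by 2-fold, and no call changed. The labels do not state whether the numbers pair the libraries. Deviations of same-numbered libraries correlated at -0.0287, which with 2 libraries in each group cannot settle whether they were handled together. With a fold change limit of 1.5 in place of 2, 14 members were lower and 4 higher, beside 18.9% of all genes in each direction. Between 6 and 7 members were lower by 2-fold, and between 0 and 1 higher, when a library was left out. The median log2 fold change of the members was -0.30 with total counts, -0.30 with no filter, -0.33 with limma on log2(RPKM + 0.1), -0.29 with limma on log2(RPKM + 1), and between -0.33 and -0.28 when a library was left out. The signs that turned belonged to genes that did not pass with all 4 libraries, although GMNN passed without shCtl replicate 2 (edgeR adjusted p = 0.0478) and POLD3 without shM2-3 replicate 2 (edgeR adjusted p = 0.00363), both as higher. Over the libraries left out in turn, ORC2 ran from -0.069 to 0.030, GMNN from -0.0090 to 0.36, MCM5 from -0.20 to 0.064, GINS1 from -0.010 to 0.17, GINS3 from -0.20 to 0.17 (0.036 without shM2-3 replicate 1), POLA1 from -0.17 to 0.045 (0.031 without shCtl replicate 1) and POLD3 from -0.087 to 0.45 on the log2 scale. With 2 replicates per group of a single line and a single hairpin, effects of the hairpin sequence itself cannot be told apart from those of its target. The values carry both counting error and the spread between replicates.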

Other observations

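Of 12 further genes of chromatin copying, 4 (33.3%) were lower and 4 (33.3%) higher, near the 36.4% and 36.3% of all genes tested. The median log2 fold change of the 12 was 0.0082. CDCA7, which works with the remodeller HELLS, was the lowest, with 10.7 and 11.4 RPKM in shCtl and 7.13 and 6.75 in shM2-3, a log2 fold change of -0.60 (standard error 0.0831, edgeR adjusted p = 1.87e-05). RBBP4, the histone-binding subunit that CAF-1 shares with other complexes, was the highest, with 12.8 and 13.2 against 18.4 and 18.7, a log2 fold change of 0.58 (standard error 0.0445, edgeR adjusted p = 5.61e-08). The subunits of CAF-1 thus held 2 higher genes, CHAF1A and RBBP4, and 1 lower gene, CHAF1B. ASF1B, a histone chaperone that hands histones to CAF-1 and was named after its value was seen, rose by 0.41 on the log2 scale.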
